A study of Homo sapiens with 38 samples.

Results

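CD44, CTNND1, FGFR2, LSR, MPRIP, MAGI1 and ENAH are 7 genes whose transcripts carry exons regulated by the epithelial splicing regulatory proteins ESRP1 and ESRP2. They were taken by name, 7 of 58425 genes with a matched transcript, and the transcripts that carry or lack each exon were then read from the annotation. The annotation does not mark exons as regulated by ESRP1 or ESRP2. The exons of MPRIP and MAGI1 were picked by TPM and those of LSR because they were called. Whether these are the regulated exons of those genes was not checked. The genes were chosen with isoform values of these libraries in view, so their exon use, between genotypes and between fractions, is given here as a description with no p-value, and counts of calls only stand beside those over all events. RNA was sequenced from HCT116 cells, a human colorectal carcinoma line, in nuclear and cytoplasmic fractions of wild-type cells and of lines with AGO1 or AGO2 knocked out, with both (AGO1/2, the double knockout), or with AGO3 as well (AGO1/2/3, the triple knockout). Each of the 5 genotypes gave 3 libraries per fraction, 30 in all, from wild-type passages 27, 28 and 29, AGO1 knockout passages 6, 7 and 8, AGO2 knockout passages 8, 9 and 10, double knockout passages 9, 10 and 11, and triple knockout passages 11, 12 and 14. Each genotype was 1 cell line, so the loss of the Argonaute genes, the line and its passage range cannot be told apart, and the p-values below measure the spread between cultures of 1 line. Libraries held 20431557 to 26536692 assigned reads in wild-type nuclei, 31252459 to 54097984 in knockout nuclei, 39476205 to 43281746 in wild-type cytoplasm and 66451720 to 79731793 in knockout cytoplasm. All 4 knockouts were compared with the same wild-type libraries.

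ESRP1 and ESRP2 are RNA-binding proteins of epithelial cells. They bind GU- and UGG-rich elements near alternative exons, and a site downstream of an exon is mostly linked to its inclusion while one upstream of or within it is mostly linked to skipping. Epithelial cells switch many such exons when they lose ESRP1, as in epithelial-mesenchymal transition. Argonaute proteins carry miRNAs, and the miR-200 family, which acts through them, is known to repress the transcription factors ZEB1 and ZEB2, which in turn repress epithelial genes.

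The exons that the values below turn on are shown so that their length and borders can be seen. Each is printed 5′ to 3′ on the strand of its gene, with the exon in capitals and 20 bases of flanking intron on each side in lower case; coordinates are those of the exon in hg38, and for MPRIP the capitals stop at the stop codon that lies within its 63-nt exon.
CD44 variable exon v3, chr11:35198121-35198246, plus strand: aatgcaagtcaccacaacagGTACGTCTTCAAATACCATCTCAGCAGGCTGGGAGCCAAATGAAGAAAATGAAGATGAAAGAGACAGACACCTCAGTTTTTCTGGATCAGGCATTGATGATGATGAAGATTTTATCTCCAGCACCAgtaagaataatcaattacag
CD44 variable exon v8, chr11:35208105-35208206, plus strand: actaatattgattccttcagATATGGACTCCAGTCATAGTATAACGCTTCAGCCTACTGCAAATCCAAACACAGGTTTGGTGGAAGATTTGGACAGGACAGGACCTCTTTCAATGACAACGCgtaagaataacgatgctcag
CD44 variable exon v10, chr11:35211246-35211449, plus strand: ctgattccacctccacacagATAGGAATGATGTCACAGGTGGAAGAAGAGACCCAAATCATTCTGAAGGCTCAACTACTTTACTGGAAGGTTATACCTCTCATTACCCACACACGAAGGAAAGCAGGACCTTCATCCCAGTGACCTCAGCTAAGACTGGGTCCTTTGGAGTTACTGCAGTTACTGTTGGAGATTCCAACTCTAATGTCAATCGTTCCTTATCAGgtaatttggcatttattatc
ENAH exon 11a, chr1:225504991-225505053, minus strand: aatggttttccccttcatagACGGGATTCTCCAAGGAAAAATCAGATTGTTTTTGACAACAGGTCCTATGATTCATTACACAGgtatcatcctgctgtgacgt
MPRIP cassette exon up to the stop codon, chr17:17180607-17180639, plus strand: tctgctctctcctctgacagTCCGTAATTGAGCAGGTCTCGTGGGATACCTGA
LSR first cassette exon, chr19:35261925-35261981, plus strand: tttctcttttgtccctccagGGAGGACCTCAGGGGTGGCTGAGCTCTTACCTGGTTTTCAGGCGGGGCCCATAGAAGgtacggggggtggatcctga
LSR second cassette exon, chr19:35262546-35262692, plus strand: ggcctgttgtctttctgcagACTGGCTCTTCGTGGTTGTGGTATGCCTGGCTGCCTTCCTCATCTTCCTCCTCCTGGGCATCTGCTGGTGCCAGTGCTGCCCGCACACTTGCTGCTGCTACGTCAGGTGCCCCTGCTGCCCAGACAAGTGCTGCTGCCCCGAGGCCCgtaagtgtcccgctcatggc
MAGI1 cassette exon, chr3:65448022-65448057, minus strand: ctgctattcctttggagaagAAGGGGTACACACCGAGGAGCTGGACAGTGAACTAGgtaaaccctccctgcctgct
FGFR2 exon IIIb, chr10:121518682-121518829, minus strand: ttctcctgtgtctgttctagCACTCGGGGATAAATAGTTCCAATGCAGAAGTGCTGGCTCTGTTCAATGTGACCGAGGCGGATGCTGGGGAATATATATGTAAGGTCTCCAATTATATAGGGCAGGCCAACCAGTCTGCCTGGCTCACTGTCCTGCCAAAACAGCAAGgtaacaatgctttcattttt
Of the 15 member exons examined, which are v2 to v10 of CD44 and the 6 exons of the other genes shown here, 14 had a length that is a multiple of 3. The share was 44.2% over 13623 exons of single-exon cassette events with a mean of at least 1 TPM in nuclei. That set was not limited to coding exons, and most member exons are coding, so the shares are not of like sets. FGFR2 exon IIIb, of 148 nt, was the other. The 15 hold no exon of CTNND1, whose 119-nt exon described below has a length that is not a multiple of 3. Other member exons named below were also left out. The MPRIP exon keeps the frame by length but ends the reading frame: the 33 nt shown are 11 codons, the last of them a stop.

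Motifs of the ESRP type were searched as letters in the 250 intron bases on each side of each exon, on the sense strand, with TGGTGG and GGTGGG as the motifs; a run TGGTGGG counts for both. One or the other lay upstream of 3 of the 15 member exons (v10, IIIb and the MPRIP exon) and downstream of 3 (v8, v9 and the MPRIP exon). Over the same 13623 single cassette exons, 18.7% had either motif upstream and 20.9% had either downstream. The windows downstream of v8 and v9 held 2 and 3 copies of TGGTGG, and the window upstream of IIIb held 2 copies of TGGTGG and 1 of GGTGGG. The windows of v2 to v7, ENAH exon 11a, MAGI1 and both LSR exons held no copy of these letters.

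Among the knocked-out genes, AGO1 was listed at 9.34 to 12.6 TPM in wild-type nuclei and 10.7 to 14.4 TPM in wild-type cytoplasm. In the AGO1, double and triple knockouts it stayed at 2.39 to 4.13 TPM in nuclei and 0.807 to 1.02 TPM in cytoplasm. AGO2 was at 46.0 to 57.8 TPM in wild-type nuclei and 31.1 to 39.8 TPM in cytoplasm, and its RNA was lower but present in the AGO2 (26.6 to 34.0 and 16.6 to 21.0 TPM), double (28.5 to 41.2 and 28.6 to 29.2 TPM) and triple knockouts (24.5 to 29.3 and 24.1 to 28.8 TPM). AGO3 was at 8.02 to 9.33 TPM in triple knockout cytoplasm against 6.62 to 9.53 TPM in wild-type, so its RNA level does not check that label. Of the 6 epithelial markers, EPCAM, CDH1, KRT8, KRT18, CLDN4 and CLDN7 were all measured in wild-type nuclei, with a summed level of 1012 to 1080 TPM, and the 6 mesenchymal markers summed to 10.8 to 11.3 TPM, with CDH2, ZEB2 and SNAI2 near 0.

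ESRP1 RNA was much lower in the double and triple knockout lines than in wild-type cells, in both fractions. In nuclei it was 172, 186 and 273 CPM (estimated reads scaled to a common library size) in wild-type passages 27, 28 and 29, 42.9, 34.5 and 59.3 CPM in double knockout passages 9, 10 and 11, and 63.5, 61.6 and 68.4 CPM in the triple knockout libraries. Neither group overlapped with wild-type. The log2 fold change was -2.21 in the double knockout (adjusted p = 3.71e-08, edgeR quasi-likelihood test) and -1.71 in the triple knockout (adjusted p = 7.20e-07). Cytoplasmic ESRP1 was 150.5, 155 and 231 CPM in wild-type cells and 26.9, 23.0 and 37.0 CPM in double knockout cells, a log2 fold change of -2.62 (adjusted p = 3.28e-08, edgeR), and the triple knockout gave -1.94 (adjusted p = 6.57e-07). The single AGO1 knockout was lower by less, with -0.51 in nuclei (adjusted p = 0.0319, edgeR) and -0.62 in cytoplasm (adjusted p = 0.0239). That call was lost without single libraries: without wild-type passage 29, the one with the most ESRP1, the AGO1 knockout gave -0.27 and -0.39, and without 1 AGO1 knockout passage it gave -0.47 to -0.52 in nuclei (6, 7 or 8 left out) and -0.56 and -0.62 in cytoplasm (6 or 7 left out), none passing the test. In the AGO2 knockout, ESRP1 was at -0.16 in nuclei (adjusted p = 0.474, edgeR) and -0.29 in cytoplasm (adjusted p = 0.257). Fewer cells of a kind and less RNA per cell cannot be told apart in these bulk libraries.

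No fall of ESRP2, the paralog with overlapping targets, passed the test. It rose in nuclei by 0.40 in the AGO1 (adjusted p = 0.000727, edgeR), 0.34 in the AGO2 (adjusted p = 0.00173) and 0.24 in the double knockout (adjusted p = 0.00833) on the log2 scale, and was at 0.13 in the triple knockout (adjusted p = 0.144). Its level was also lower than that of ESRP1: wild-type nuclei held 13.7 TPM of ESRP2 and 59.9 TPM of ESRP1, while double knockout nuclei held 14.1 and 11.6 TPM, TPM being scaled for transcript length. In double knockout nuclei 4 of 8 listed splicing regulators rose and 2 fell, where 67.6% of all tested genes were called. Triple knockout nuclei had 3 higher and 2 lower (58.6% of all genes called). In cytoplasm 2 rose and 4 fell in the double knockout (49.2%), and 2 rose and 2 fell in the triple knockout (38.7%). The list was drawn up with earlier results of these data known, and nothing is read from these counts. RBFOX2, which promotes mesenchymal exons of several of the same genes, rose in both fractions, by 0.60 and 0.52 in nuclei of the double (adjusted p = 2.86e-08, edgeR) and triple knockouts (adjusted p = 2.01e-07), and by 0.69 and 0.65 in cytoplasm. QKI, another regulator of mesenchymal exons, rose in cytoplasm by 0.70 (adjusted p = 8.73e-05, edgeR) and 0.50 (adjusted p = 0.00207) but not in nuclei, where its fold changes were -0.07 and -0.11. RBM47, which supports epithelial exon choice, fell in cytoplasm by 0.97 (adjusted p = 9.69e-05, edgeR) and 0.77 (adjusted p = 0.000898) on the log2 scale. It was not called in nuclei of these knockouts. HNRNPM and PTBP1 rose in nuclei of all 4 knockouts, by 0.30 to 0.66, and both fell in double knockout cytoplasm, by 0.69 and 0.47. MBNL1 fell in nuclei of the double and triple knockouts by 0.35 and 0.27.

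Marker genes of the epithelial and mesenchymal states were called in all 4 knockouts, and VIM and ZEB1 rose in the double and triple knockouts. Of all tested genes, 29.9%, 40.2%, 67.6% and 58.6% were called in nuclei of the AGO1, AGO2, double and triple knockouts. The shares over all genes in cytoplasm were 12.4%, 16.1%, 49.2% and 38.7%. The summed level of the 6 mesenchymal markers was 32.6 to 38.1 TPM in double knockout and 25.1 to 26.1 TPM in triple knockout nuclei, and in cytoplasm it was 4.21 to 6.61 TPM in wild-type, 16.0 to 18.0 in double knockout and 17.1 to 19.4 in triple knockout cells. VIM, the intermediate filament protein of mesenchymal cells, rose by 3.98 and 3.73 on the log2 scale in nuclei (adjusted p = 2.57e-12 and 5.66e-12, edgeR), from 2.63 CPM in wild-type, and ZEB1 rose by 1.63 and 1.34. In cytoplasm these 2 rose and 2 fell of the 4 tested: FN1, a matrix protein, fell by 0.81 and 1.01 (adjusted p = 0.00263 and 0.000771, edgeR), and SNAI2 fell too, at 0.0333 and 0.0314 CPM. In the single knockouts, VIM and ZEB1 rose in AGO1 nuclei by 0.86 and 0.39 while FN1 fell by 0.85, and all 3 fell in AGO2 nuclei, VIM and ZEB1 by 0.38 and 0.39 and FN1 by more, with a summed level of 5.84 to 6.11 TPM. CDH2, ZEB2 and SNAI2 stayed near 0 in every group. CDH1, the epithelial cadherin, fell by 2.18 and 1.49 (adjusted p = 1.74e-06 and 8.52e-05, edgeR). The epithelial list was not of 1 direction in nuclei: in double and triple knockout nuclei 3 of 6 rose (KRT8, KRT18, CLDN4) and 3 fell (CDH1, EPCAM, CLDN7). In cytoplasm 0 of the 6 were called higher and 3 lower in the double knockout, and 1 higher and 3 lower in the triple knockout. The sum of the list was 2052 to 2284 TPM in double knockout nuclei. It was 659 to 769 TPM in double knockout cytoplasm against 1043 to 1176 TPM in wild-type cytoplasm. The part of these changes in the exon shares below was not tested.

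An exon's share was read as a cassette event: an annotated intron whose ends are used by other transcripts with 1 or more exons in between, with inclusion given as the TPM of the including transcripts over that of including and skipping transcripts. The 7 genes held 54 such events, 51 of which had at least 1 TPM on average and entered the fit in each fraction. A call needed an adjusted p of 0.05 or less (limma on log2 ratios) and a change of at least 10 percentage points. Against wild-type, 1, 3, 9 and 4 of the 51 were called in nuclei of the AGO1, AGO2, double and triple knockouts, where the share over all tested events was 0.0546%, 0.491%, 4.79% and 3.04%. In cytoplasm 1, 0, 8 and 4 were called, against 0.144%, 0.243%, 1.57% and 0.774% of all tested events. For the 0 in the AGO2 knockout cytoplasm, 9 of the 51 had an unadjusted limma p under 0.05. Since the genes were chosen on these contrasts, nothing is read from these counts. The median size of change over the 51 was 2.06 and 2.38 points in double knockout nuclei and cytoplasm, beside 1.63 and 0.927 over all events, and 1.06 and 0.52 points in the AGO2 knockout, beside 1.34 and 0.807. Called events lay in CD44, MPRIP, LSR, MAGI1 and CTNND1, and none of FGFR2 or ENAH was called against wild-type.

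CD44 (ENSG00000026508.21, chr11:35138882-35232402, plus strand) encodes the cell surface receptor for hyaluronan. Its transcripts differ in a block of 9 consecutive exons, v2 to v10, that lengthen the extracellular stem of the protein; the standard form lacks all of them, the form with v8 to v10 is the epithelial one, and v3 holds a site for heparan sulfate. Of 38 CD44 transcripts in the files, 6 carried part of the block between the same outer exons (intron chr11:35190066-35214851) and 3 skipped it. The cassette that spans the most annotated exons is 1 exon longer, but only 1 transcript skips it and its inclusion was 99.9% or more in all 30 libraries, so the block itself was taken once the annotation had been read.

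**Figure D1:**
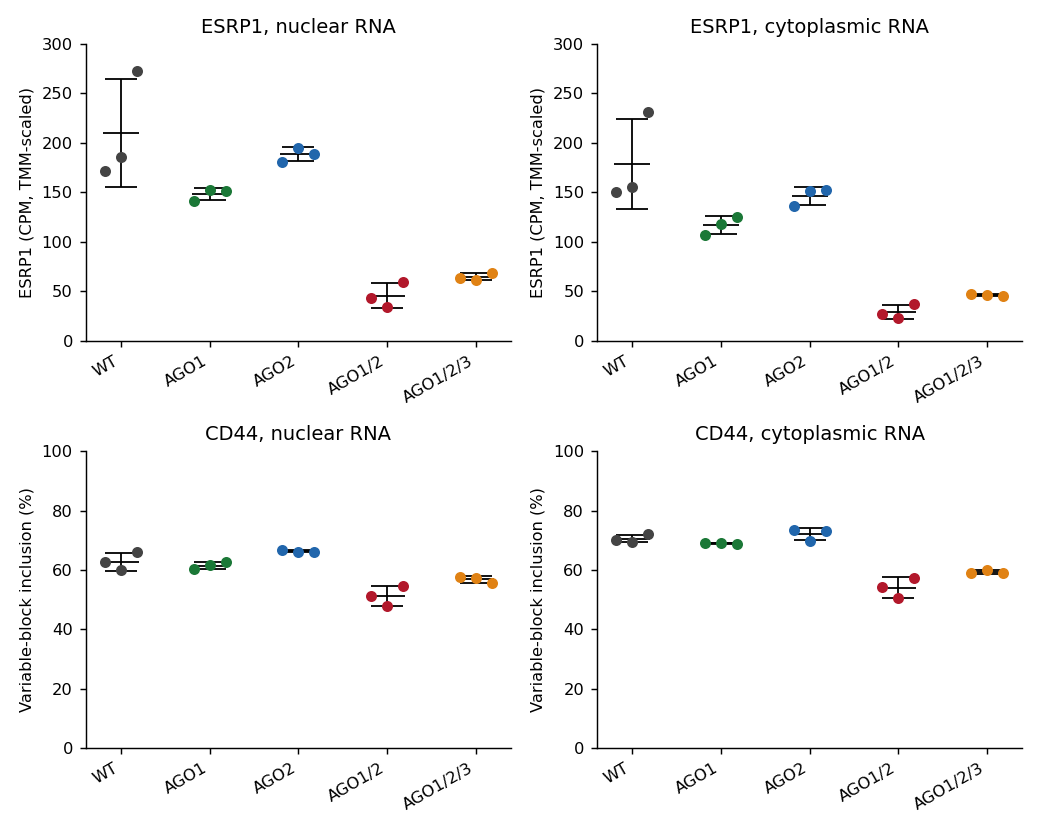
ESRP1 level (CPM, upper panels) and the share of block-spanning CD44 transcripts with any variable exon (percent of TPM, lower panels), by genotype. Nuclear and cytoplasmic RNA are in separate panels. Each point is 1 library, with lines at the mean and at SD above and below it (n = 3). The double (AGO1/2) and triple (AGO1/2/3) knockout libraries sit below every wild-type library in all panels, and the double knockout has the lowest mean.

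Among the CD44 transcripts that span the block, those with variable exons held a smaller share in the double and triple knockouts than in wild-type. This is a share of the block-spanning TPM and not of all CD44 TPM. In nuclei their share was 62.5%, 59.8% and 65.9% in wild-type, 51.3%, 47.8% and 54.6% in double knockout and 57.7%, 57.2% and 55.6% in triple knockout libraries. Both knockout groups lay wholly below wild-type, with differences of -11.5 and -5.9 points. In cytoplasm wild-type libraries held 70.2%, 69.5% and 72.0%, double knockout libraries 54.3%, 50.4% and 57.3%, and triple knockout libraries 59.0%, 59.9% and 59.0%. These groups again did not overlap, and the differences were -16.6 and -11.3 points. AGO1 knockout libraries held 60.2% to 62.5% in nuclei and 68.7% to 69.2% in cytoplasm, and their group means were within 2 points of those of wild-type. AGO2 knockout libraries overlapped with wild-type in both fractions, at 65.9% to 66.6% in nuclei and 69.6% to 73.6% in cytoplasm.

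The difference was not spread evenly along the block. The share of transcripts with v4, which stands for v4 to v7 since the same transcripts carry them, was 44.2% ± 1.87 (SD, n = 3) in wild-type nuclei, 35.6% ± 1.42 in AGO1, 50.1% ± 1.13 in AGO2, 20.6% ± 6.23 in double knockout and 30.9% ± 0.776 in triple knockout nuclei. In cytoplasm the same shares were 48.2% ± 0.829, 36.5% ± 1.12, 51.2% ± 1.59, 17.7% ± 5.81 and 26.5% ± 0.868. The AGO1 knockout thus stood below wild-type in v4 to v7, although its total of variable forms was within 2 points of it. For v8, wild-type and double knockout shares were 62.4% and 43.1% in nuclei and 70.4% and 44.3% in cytoplasm. For v10 they were 61.2% and 49.6% in nuclei and 69.1% and 52.3% in cytoplasm, the smallest difference from wild-type of v3 to v10 in points. Exon v2 was rare everywhere, at 12.4% of the block-spanning TPM in wild-type and 6.55% in double knockout nuclei. Its main transcript, CD44-208, is 3046 nt in the files and 5431 nt in the annotation.

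**Figure D2:**
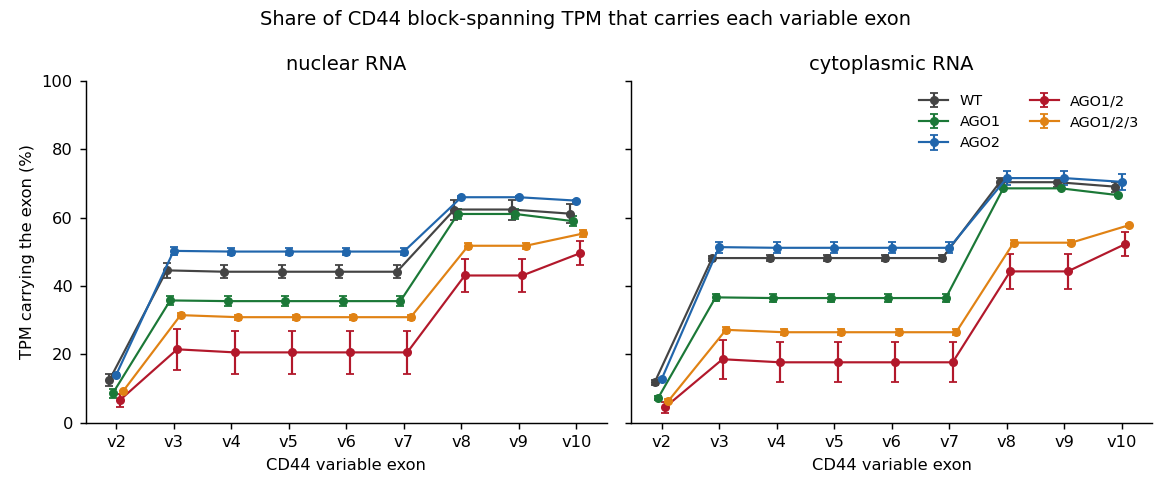
Share of block-spanning CD44 transcripts that carry each variable exon, v2 to v10 (percent of TPM), by genotype. Nuclear libraries are in one panel and cytoplasmic in the other. Points are means of 3 libraries and bars are SD. Wild-type and AGO2 knockout lie highest over v3 to v7, the AGO1 knockout lies between them and the triple knockout, and the double knockout lies lowest, while the groups are closer together at v10.

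At the level of single transcripts, the long form with v3 to v10 (CD44-206) had the largest difference in TPM between wild-type and double knockout among the forms that span the block. It was at 57.3, 50.2 and 56.1 TPM in wild-type nuclei, 32.3 to 34.6 TPM in AGO1, 72.3 to 82.6 TPM in AGO2, 18.6, 15.7 and 36.5 TPM in double knockout and 31.0 to 38.6 TPM in triple knockout nuclei. In cytoplasm it was at 50.8 to 52.8 TPM in wild-type and 7.76, 6.56 and 18.3 TPM in double knockout libraries. The double knockout passage 11 library was the highest of its group in both fractions for this form, and also for the standard form. The epithelial form with v8 to v10 (CD44-209) stood at 28.8 TPM in wild-type and 35.1 TPM in double knockout nuclei, and at 29.7 and 20.1 TPM in cytoplasm. The standard form (CD44-201) stood at 57.1 and 75.7 TPM in nuclei and at 41.6 and 34.9 TPM in cytoplasm, so its share was higher in cytoplasm while its own level was not. Of all CD44 TPM in nuclei, CD44-206 held 12.5% in wild-type and 8.11% in the double knockout. CD44-209 held 6.64% and 12.6%, and CD44-201 held 13.1% and 27.2%.

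A form that carries v10 alone (CD44-210), singled out after its values were seen, was close to absent outside the double and triple knockouts. It was at 0.0858, 0.235 and 0.103 TPM in wild-type nuclei, 11.7, 11.8 and 11.3 TPM in double knockout and 8.05, 7.59 and 5.92 TPM in triple knockout nuclei. Cytoplasmic libraries held 0.127 to 0.263 TPM in wild-type, 6.01 to 7.08 TPM in double knockout and 4.79 to 5.74 TPM in triple knockout cells. AGO1 and AGO2 knockout libraries lay between 0 and 0.673 TPM. Since it carries v10 and lacks v8, the v10 share stood above the v8 share in those cells.

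**Figure D3:**
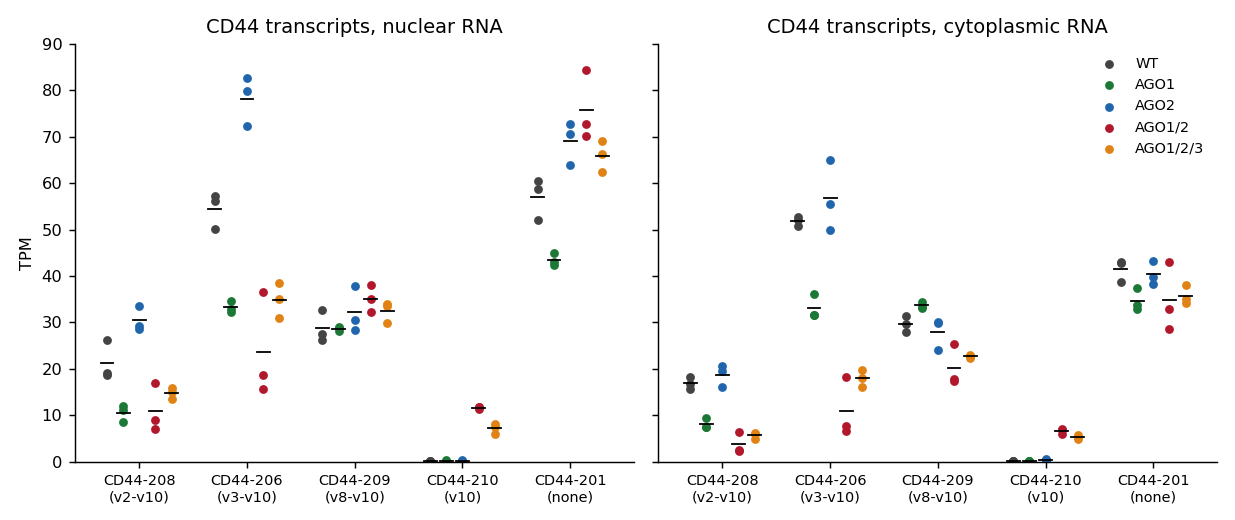
Level (TPM) of the main CD44 transcripts that span the variable block, with the variable exons each carries, in nuclear and cytoplasmic RNA by genotype, 1 point per library and a bar at the mean of 3. The form with v3 to v10 has its lowest mean in the double knockout (AGO1/2), and the form with v10 alone is above 4 TPM in every double and triple knockout library and under 1 TPM in all others.

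Smaller events inside the block, named because they were called, did not all point the same way. Inclusion of v2 to v7 between the upstream constant exon and v8 was 78.6%, 75.1% and 73.7% in wild-type nuclei and 57.0%, 54.8% and 66.9% in double knockout nuclei, and 75.6%, 73.6% and 73.4% against 50.1%, 48.1% and 59.8% in cytoplasm. No library of the knockout reached the wild-type range in either fraction. For v2 to v9, whose only skipping transcript is the v10 form, inclusion was 99.8% to 99.9% in wild-type and 85.8% to 91.2% in double knockout nuclei. The AGO1 knockout was at -8.25 points for v2 to v7 in nuclei and -10.8 in cytoplasm, beside -7.13 and -13.7 in the triple knockout. A further event, v2 to v3, was higher than in wild-type nuclei by 10.2 points in the AGO2, 6.15 in the double and 8.23 in the triple knockout, but its skipping side is almost wholly 1 retained-intron transcript of 863 nt, and with protein-coding transcripts alone the AGO2 difference was -0.5 points. Retained-intron transcripts made up 41.2% of all CD44 TPM in wild-type nuclei and 23.1% in double knockout nuclei, and 10.2% and 6.83% in cytoplasm; they do not enter the share of the variable block.

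MPRIP (ENSG00000133030.22, chr17:17042545-17217679, plus strand) encodes a scaffold that ties myosin phosphatase and RhoA to actin filaments. Its 63-nt exon at chr17:17180607-17180669 ends the reading frame, as printed above. Inclusion was 17.0%, 16.8% and 16.0% in wild-type nuclei, 29.5%, 25.8% and 30.1% in AGO1, 22.9%, 21.0% and 20.9% in AGO2, 28.4%, 28.3% and 28.7% in double knockout and 28.0%, 30.4% and 27.7% in triple knockout nuclei. All 4 knockouts lay above wild-type there. In cytoplasm it was 21.7%, 27.6% and 30.3% in wild-type, 49.5%, 42.2% and 45.1% in AGO1, 37.7%, 39.9% and 38.3% in double knockout and 37.1%, 35.6% and 39.5% in triple knockout libraries, while the AGO2 knockout at 26.2% to 30.9% overlapped with wild-type. Unlike for the CD44 block as a whole, the AGO1 knockout stood as far from wild-type as the double and triple knockouts, with 11.9 points in nuclei and 19.0 in cytoplasm beside 11.9 and 12.1 in double knockout. The including transcript MPRIP-202 was at 6.83 TPM in wild-type, 9.35 in AGO1 and 19.0 in double knockout nuclei. In the AGO1 knockout cytoplasm the skipping side also differed, at 13.0 to 14.1 TPM against 24.0 to 24.9 TPM in wild-type.

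LSR (ENSG00000105699.17, chr19:35248330-35267964, plus strand) encodes the lipolysis-stimulated lipoprotein receptor, a membrane protein of tricellular junctions. Its called event, named after its values were seen, joins the 57-nt and 147-nt exons printed above; 7 transcripts carry 1 or both and LSR-203 skips both. Inclusion was 24.6%, 28.7% and 27.2% in wild-type nuclei, 45.8%, 41.0% and 41.7% in double knockout and 39.6%, 36.6% and 38.6% in triple knockout nuclei. Cytoplasmic libraries held 28.6%, 26.4% and 32.8% in wild-type, 47.3%, 47.4% and 41.1% in double knockout and 44.2%, 43.7% and 43.9% in triple knockout cells. These groups did not overlap in either fraction, with differences of 16.0 and 11.4 points in nuclei and 16.0 and 14.7 in cytoplasm. AGO1 and AGO2 knockout libraries ranged from 27.1% to 32.4% in nuclei and from 29.5% to 34.1% in cytoplasm. The including transcript LSR-202 was at 3.96 TPM in wild-type and 12.7 TPM in double knockout nuclei.

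MAGI1 (ENSG00000151276.24, chr3:65353525-66038918, minus strand) encodes a scaffold with guanylate kinase and PDZ domains at tight junctions. Its 36-nt exon was included at 69.3% to 70.1% in wild-type nuclei, 72.7%, 77.6% and 76.2% in double knockout and 79.7%, 75.3% and 80.6% in triple knockout nuclei. In cytoplasm the values were 65.5%, 73.2% and 67.0% in wild-type, 85.6%, 88.7% and 73.8% in double knockout and 75.2%, 77.1% and 81.0% in triple knockout libraries. Both groups stood above wild-type, but the skipping side is 1 transcript of 556 nt at 0.218 to 1.05 TPM in double knockout cytoplasm, and shares of estimated reads in place of TPM gave 1.4 points there in place of 14.1. The other MAGI1 exons named by the rule, of 84 nt and a pair of exons near the 3′ end, differed from wild-type by 6.6 points or less.

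ENAH (ENSG00000154380.19, chr1:225486829-225653142, minus strand) encodes Mena, which extends actin filaments at the cell edge, and its 63-nt exon 11a is an epithelial exon of that protein. Inclusion was 39.0%, 42.1% and 40.2% in wild-type nuclei, 34.8%, 36.3% and 35.4% in double knockout and 34.8%, 35.3% and 37.1% in triple knockout nuclei, so every library of these knockouts was below wild-type by a small margin. In cytoplasm wild-type libraries held 28.3%, 28.6% and 25.8%, double knockout libraries 21.8%, 25.9% and 25.3% and triple knockout libraries 23.7%, 22.1% and 25.4%. No ENAH event was called against wild-type. The main skipping transcript, ENAH-203, is 2758 nt in the files and 13092 nt in the annotation used here; with transcripts of near-equal length alone the nuclear differences were 2.9 and 3.1 points, in the other direction from -4.92 and -4.72.

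FGFR2 (ENSG00000066468.24, chr10:121478332-121598458, minus strand) encodes a fibroblast growth factor receptor with an immunoglobulin domain that ends in either IIIb, the epithelial form, or IIIc, the mesenchymal form. Its level was low, at 8.08 TPM in wild-type and 4.75 TPM in double knockout nuclei, which limits the precision of its shares. Of transcripts with either exon, IIIb made up 46.0%, 50.2% and 43.5% in wild-type nuclei, 37.9%, 43.1% and 47.8% in double knockout and 43.6%, 41.3% and 51.1% in triple knockout nuclei. These libraries overlapped. In cytoplasm the shares were 43.3%, 48.5% and 56.9% in wild-type, 43.1%, 38.4% and 54.8% in double knockout and 51.7%, 38.8% and 45.7% in triple knockout libraries, which overlapped too. The AGO2 knockout cytoplasm stood above wild-type, at 64.5%, 58.9% and 58.2%. No switch from IIIb to IIIc in the double or triple knockouts was seen beyond the spread of the libraries. The part of depth in this was not tested.

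CTNND1 (ENSG00000198561.16, chr11:57753243-57819546, plus strand) encodes p120 catenin, which holds cadherins at the membrane; longer forms start at an upstream methionine and are typical of mesenchymal cells, while epithelial cells favour a start further downstream. Transcripts were grouped by their coding start, of which 3 classes made up nearly all of the coding TPM. In cytoplasm the upstream start class (10 transcripts, start at position 57791479) held 6.82%, 6.97% and 6.52% of the coding TPM in wild-type, 12.6%, 12.3% and 14.1% in double knockout and 11.1%, 11.6% and 10.6% in triple knockout libraries. The downstream class (8 transcripts, start at 57795613) held 91.9% to 92.8% in wild-type, 83.7% to 86.9% in double knockout and 87.3% to 87.9% in triple knockout cytoplasm, and neither class overlapped with wild-type there. In nuclei the upstream class differed in the other direction, at 23.5% to 26.1% in wild-type and 16.0% to 18.1% in double knockout libraries. That nuclear level is almost wholly CTNND1-227, at 11.3 TPM in wild-type and 3.28 TPM in double knockout nuclei, which is 848 nt in the files and 6105 nt in the annotation.

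The 5′ cassette exons of CTNND1 turned on the same transcript. Inclusion of the 119-nt exon at chr11:57789037-57789155 was 90.1%, 96.5% and 96.0% in wild-type nuclei, 55.3%, 59.2% and 57.3% in double knockout and 68.5%, 64.9% and 71.5% in triple knockout nuclei. Cytoplasmic libraries ranged from 4.89% to 28.0% in wild-type and from 26.2% to 38.1% in double knockout cells, and overlapped. The including and skipping transcripts together held only 0.86 and 1.26 TPM there, beside 12.1 TPM in wild-type nuclei. Without CTNND1-227 and other transcripts of unequal length, the nuclear differences were 22.1 and 24.1 points upward in place of -36.9 and -25.9, so their direction is not settled by these files. For the group of exons that holds the upstream start, inclusion in cytoplasm was 3.94% to 4.40% in wild-type, 9.79% to 11.1% in double knockout and 7.78% to 9.05% in triple knockout libraries, and the direction there was upward with every transcript set. The 18-nt exon at chr11:57806461-57806478 stood at 4.99% to 5.65% in wild-type and 8.13% to 9.76% in double knockout cytoplasm.

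**Figure D4:**
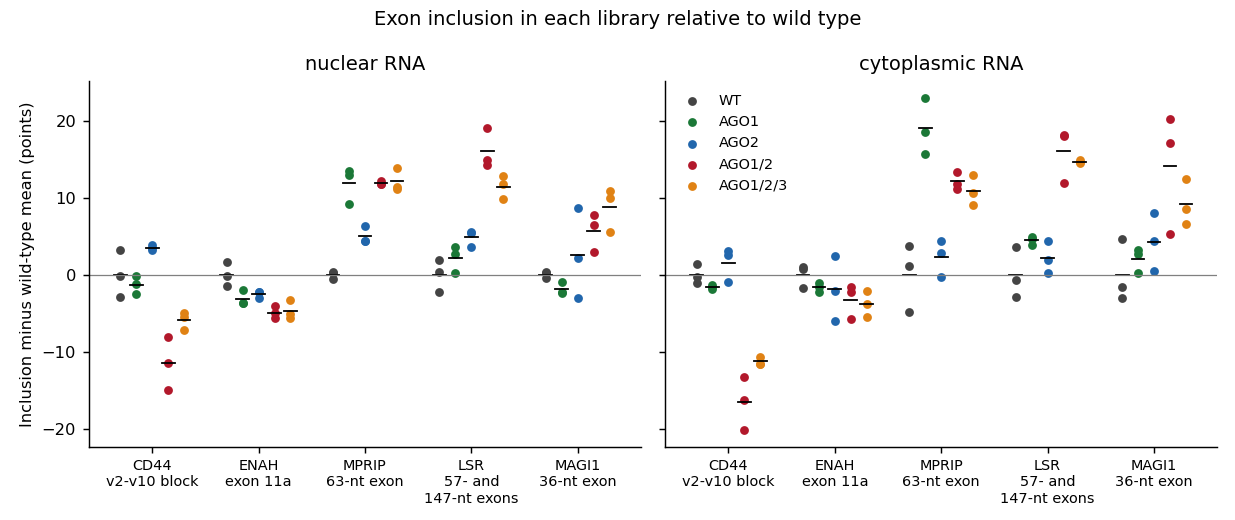
Inclusion of the CD44 variable block and of the ENAH, MPRIP, LSR and MAGI1 exons in each library, as the difference from the wild-type mean of the fraction (percentage points), with 1 point per library and a bar at the mean of 3, coloured by genotype. MPRIP and LSR lie above every wild-type library in the double (AGO1/2) and triple (AGO1/2/3) knockouts and CD44 lies below, while the single AGO1 knockout stands apart from wild-type for the MPRIP exon.

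Gene totals did not move as one. Against wild-type, 3, 4, 6 and 6 of the 7 genes were called by edgeR in nuclei of the AGO1, AGO2, double and triple knockouts, where 29.9%, 40.2%, 67.6% and 58.6% of all tested genes were. In cytoplasm 2, 2, 6 and 5 were called, against 12.4%, 16.1%, 49.2% and 38.7% of all genes. These contrasts are the ones the genes were chosen on, and nothing is read from the counts. MAGI1 had the widest range, at 196, 209 and 213 CPM in wild-type nuclei, 264, 280.3 and 279.7 CPM in AGO1, 127 ± 6.2 CPM (SD, n = 3) in AGO2, 64.0, 58.1 and 78.1 CPM in double knockout and 109, 103 and 114 CPM in triple knockout nuclei. No knockout overlapped with wild-type, and the AGO1 knockout was the one above it. CD44 was at 863, 814 and 870.3 CPM in wild-type and 1184, 1060 and 1215 CPM in AGO2 knockout nuclei, a log2 fold change of 0.44, and at -0.16 and -0.00 in the double and triple knockouts. In cytoplasm CD44 was at -0.38 in both of these knockouts. FGFR2 was at -0.46 and -0.52 in nuclei and -0.90 and -0.86 in cytoplasm, ENAH at -0.21 and -0.18 and then -0.49 and -0.48, and MPRIP at 0.33 and 0.37 and then 0.33 and 0.41. LSR stood at 0.59 and 0.70 in nuclei and -0.18 and -0.15 in cytoplasm, and CTNND1 at 0.26 and 0.30 and then -0.56 and -0.13. On the log2(TPM + 1) scale the median of all genes was shifted by -0.203 to -0.0701, and there the CTNND1 values in nuclei turned to -0.35 to -0.05.

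The fractions were compared over all events in 1 limma fit of the 30 libraries; since shares in both fractions were in view when the genes were chosen, the values of the 7 genes are again a description. Between nuclei and cytoplasm, 6, 7, 4, 4 and 4 of the 51 events were called in wild-type, AGO1, AGO2, double and triple knockout cells, against 13.1%, 10.5%, 8.96%, 5.48% and 5.95% of all tested events, and nothing is read from these counts. ENAH exon 11a was called in all 5 genotypes, 12.9 points higher in nuclei in wild-type (40.4% against 27.6%) and 11.2 to 12.3 points higher in the knockouts. These calls rest on ENAH-203: with transcripts of near-equal length alone the differences were -5.0 points in wild-type and -4.3 to -0.8 points in the knockouts, and none was called. The 3807-nt exon of MPRIP was at 19.9% in wild-type nuclei and 5.60% in cytoplasm, and was called in all 5 genotypes. The 63-nt MPRIP exon was lower in nuclei in all 5 genotypes, by 17.1 points in the AGO1 and 10.2 points in the double knockout, which were called, while wild-type at -9.95 points was just short of the limit of 10 points. For CD44 the variable block was lower in nuclei by 7.8 points in wild-type (62.8% against 70.6%) and by 2.77 and 2.48 points in the double and triple knockouts. The change of that gap against wild-type, 5.0 and 5.3 points, was not called. The CTNND1 exon of 119 nt was 76.4 points higher in wild-type nuclei and 26.3 points higher in double knockout nuclei. The limits given above, on CTNND1-227 and on the low cytoplasmic level of this event, hold here too. Leaving out transcripts of unequal length, 47 of the member events could be fitted, without this CTNND1 exon, and 3, 4, 1, 3 and 3 of them were called in the 5 genotypes. FGFR2 was called in 1 genotype at a time. In the AGO1 knockout this was exon IIIb between its upstream neighbour and IIIc, at 11.2% ± 11 (SD, n = 3) in nuclei and 0.227% in cytoplasm. The libraries of the fractions overlapped. Inclusion here counts transcripts that hold both IIIb and IIIc, so it is not the IIIb share given above. In the triple knockout it was a pair of upstream exons, 10.6 points higher in nuclei.

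**Figure D5:**
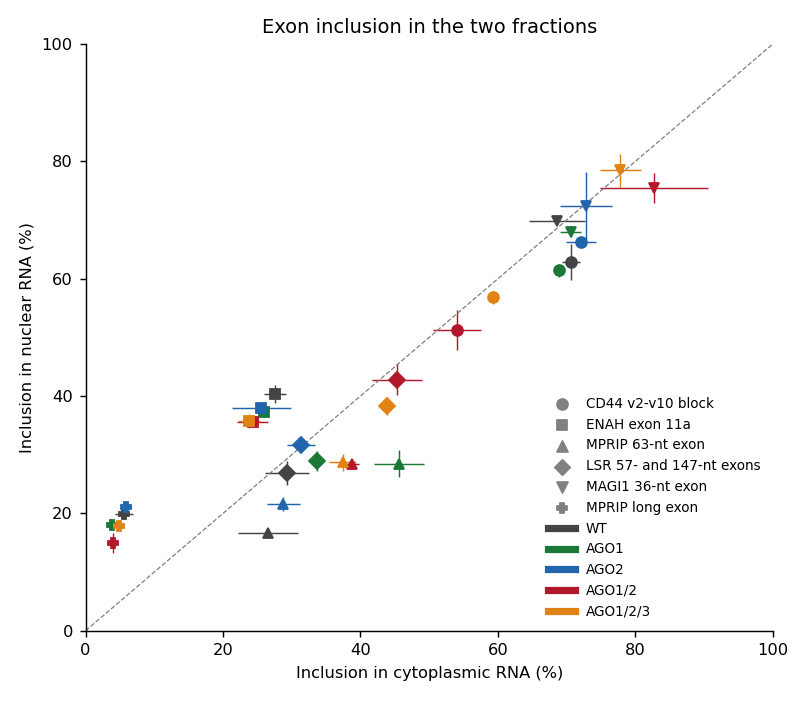
Inclusion (percent of TPM) in nuclear RNA against that in cytoplasmic RNA for the CD44 block and exons of ENAH, MPRIP, LSR and MAGI1, with 1 point per genotype at the mean of 3 libraries, bars for SD, and a dashed line where both are equal. ENAH exon 11a and the long MPRIP exon lie above the line in all 5 genotypes, although ENAH lies below it with transcripts of near-equal length alone, and the 63-nt MPRIP exon lies below the line in all 5.

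Another 19 genes with exons known to respond to ESRP1 or to epithelial-mesenchymal transition were tested against wild-type in the same limma fit. This list too was drawn up with earlier results of these data known, so it is not independent evidence. It held 58 tested events, of which 0, 1, 7 and 5 were called in AGO1, AGO2, double and triple knockout nuclei and 0, 2, 6 and 4 in cytoplasm, with the shares over all events given for the members. The same numbers of the 19 genes had a called event, where 0.148%, 1.26%, 11.2% and 7.24% of all genes with a tested event did in nuclei and 0.356%, 0.62%, 3.8% and 1.9% in cytoplasm. In the AGO1 knockout 13 nuclear and 6 cytoplasmic events had an unadjusted limma p under 0.05. Without any 1 of the AGO2 knockout passages 8, 9 and 10 or without wild-type passage 29, the AGO2 knockout had 0 called genes in each fraction, and without any 1 of its passages the triple knockout had 2 in cytoplasm. The 93-nt exon of SLK, a kinase of the cytoskeleton, fell most: inclusion was 63.4%, 63.1% and 66.8% in wild-type nuclei and 12.3%, 9.43% and 12.6% in double knockout nuclei, a fall of 53.0 points (adjusted p = 1.33e-06, limma), and it fell by 49.6 points in the triple knockout (adjusted p = 4.83e-06). In cytoplasm it fell from 65.3% to 12.1% (adjusted p = 1.70e-05, limma) and 15.0% (adjusted p = 6.40e-05). The exon, shown because of that size, has the bases below.
SLK cassette exon, chr10:104010816-104010908, plus strand: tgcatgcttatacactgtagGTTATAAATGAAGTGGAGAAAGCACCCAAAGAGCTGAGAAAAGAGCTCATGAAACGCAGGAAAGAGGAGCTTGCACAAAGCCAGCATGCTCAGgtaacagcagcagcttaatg
Exons of MAP3K7 (81 nt), EXOC1 (45 nt) and DNM2 (12 nt) fell in the double knockout in both fractions, by 12.5 to 22.7 points. The MAP3K7 exon also fell in AGO2 knockout cytoplasm, by 20.2 points (adjusted p = 0.0352, limma). That of FNIP1 (84 nt) fell in nuclei, by 14.1 points in the double (adjusted p = 0.0167, limma) and 17.3 points in the triple knockout (adjusted p = 0.00945). EPB41L5, by contrast, rose in cytoplasm, from 38.1% in wild-type to 52.2% in double knockout (adjusted p = 0.0387, limma) and 57.6% in triple knockout cells (adjusted p = 0.0171). In NUMB the 144-nt exon fell in AGO2 and double knockout cytoplasm, by 16.1 (adjusted p = 0.038, limma) and 17.9 points (adjusted p = 0.00411), and the 33-nt exon rose in nuclei of the same knockouts, by 13.0 (adjusted p = 0.0308) and 11.6 points (adjusted p = 0.00766). Called events of the list were 2 higher and 5 lower in double knockout nuclei and 1 higher and 5 lower in cytoplasm.

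The exons whose pattern over the 10 group means was most like that of the CD44 variable block were sought among 753 events of 671 other genes with at least 5 TPM and a range of at least 20 points. An exon of AAAS had a Pearson correlation of 0.890, an exon of PCYT2 0.888, the SLK exon 0.860, a group of 5 exons of ADAM15 0.764 and an exon of ITGA6 0.759. These are descriptions over 10 points that share cell lines between fractions, with no p. AAAS inclusion was 89.9% in wild-type and 67.6% in double knockout nuclei, and ADAM15 inclusion 39.8% and 15.1%. ITGA6, an integrin of epithelia and a gene of the list above, stood at 55.0% in wild-type, 45.4% in AGO1, 61.6% in AGO2 and 45.2% in double knockout nuclei, so that it shared with v3 to v7 of CD44 the lower value in the AGO1 and the higher value in the AGO2 knockout.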

How the data were processed

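RNA from nuclear and cytoplasmic fractions was made into ribosome-depleted, stranded total RNA libraries and sequenced in pairs of reads. Per the labels and the study's methods, reads were quantified per transcript with Salmon on a human hg38 annotation; the submitters' processing notes name STAR 2.5.3a and Salmon 0.11.0, and the annotation release could not be settled from the sources used here. The deposited files give TPM, an abundance that the authors' Salmon run scaled for transcript length and library depth, and an estimated count of reads per transcript, which was rounded here after summing over a gene. The argonaute binding libraries of the series were not analysed here.

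Transcript identifiers were matched to GENCODE release 44, in which 195887 of 200401 were found (97.75%); the 4514 others, with 2.23% to 4.01% of reads, were left out. Of those matched, 85.2% had the same length in both, and the exon chains of release 44 were used throughout. Every intron of a gene that other transcripts of the gene fill with 1 or more exons was taken as a cassette event. For each event log2((inclusion TPM + 0.1)/(skipping TPM + 0.1)) was fitted in limma 3.58.1 (eBayes with trend) over the 15 libraries of a fraction, for events with a mean of at least 1 TPM, and over all 30 libraries for the fractions. Genes were tested with edgeR 4.0.16 (TMM, filterByExpr with a minimum count of 10, quasi-likelihood) in R 4.3.3, and p-values were adjusted by Benjamini-Hochberg over all features tested. CPM values are edgeR's, and gene coordinates and sequences are those of hg38. Both tests were tried on simulated data with known changes first.

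All 7 genes were named. Named events were the variable block of CD44 and its exons, the 5′ exons of CTNND1, IIIb and IIIc of FGFR2, exon 11a of ENAH, and up to 3 events per gene with the highest TPM among those with a mean inclusion of 5% to 95%; called events and single transcripts outside this rule were chosen after their values were seen, as were the other-target exons named for being called. The 5 most alike events are given for CD44. Members and all lists (8 splicing regulators, 19 other targets, 6 epithelial and 6 mesenchymal markers) were chosen with earlier results of these data known. Groups are the genotypes and fractions in the labels. The alternatives tried were another pseudocount or minimum TPM, protein-coding transcripts alone, estimated reads in place of TPM, DESeq2 1.42.0, other scaling and filters, 2 groups in a fit, each library left out, and a block by culture; the set limited to transcripts whose 2 lengths were within 10% was added after seeing the data.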

Additional observations from a re-analysis of the deposited data

Results flagged for a closer look

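The effect of a knockout on 2 CTNND1 events differed between nuclei and cytoplasm by the interaction term of the limma fit; as CTNND1 was chosen with these shares in view, no p-value is given. For the 119-nt exon, the double knockout was at -36.9 points from wild-type in nuclei and 13.1 in cytoplasm, a gap of -50.1 points, and the triple knockout was at -25.9 and 11.3, a gap of -37.1 points. The cytoplasmic side of this event was low, at 0.86 TPM in wild-type, 1.26 in double and 1.49 in triple knockout cells. For the group of exons that holds the upstream coding start, the double knockout was at -10.8 and 6.3 points, a gap of -17.1, and the triple knockout at -11.5 and 4.4, a gap of -15.8. The AGO2 knockout was at -12.3 points in nuclei and -0.2 in cytoplasm for that group, a gap of -12.1. The nuclear side of both events is mostly CTNND1-227, which is 848 nt in the files and 6105 nt in the annotation. With transcripts of near-equal length alone the gap of the upstream start group was 2.5, 1.5 and 0.5 points in the double, triple and AGO2 knockouts and was not called, and the 119-nt exon could not be fitted.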

How the results depend on the processing

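Each gene and event was compared under the alternatives above. Of the values for single genes and events, 3939 kept their side of the threshold or, where no test was made, moved by no more than 1 SD. Another 134 fell short of the threshold, 68 newly passed it, 85 moved by more than 1 SD and 23 turned direction. A turn of direction was counted only where a call was involved, so uncalled values that changed sign are not among the 23. The CD44 block stayed lower in the double and triple knockouts with each library left out, by 9.8 to 13.2 points in double and 4.4 to 7.4 points in triple knockout nuclei. The cause of the shifts below was not tested.

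With only 2 groups in the fit, which has fewer samples, called member events in the AGO1, AGO2, double and triple knockouts were 0, 0, 4 and 1 in nuclei, and 0, 3 and 0 in AGO1, double and triple knockout cytoplasm. Other target genes were then 0, 2 and 2 in nuclei of the AGO2, double and triple knockouts and 0, 3 and 1 in cytoplasm, member genes in AGO2 knockout cytoplasm were 1, and ESRP1 in the AGO1 knockout was at -0.49 (adjusted p = 0.073, edgeR) and -0.61 (adjusted p = 0.0847). A pseudocount of 1 TPM gave 2 member events in AGO1 knockout cytoplasm, 2 and 4 other targets in AGO1 and AGO2 knockout nuclei and 1 in AGO1 knockout cytoplasm; no minimum TPM gave 2 member events in AGO1 knockout cytoplasm. A minimum of 5 TPM gave 2 other targets in triple knockout cytoplasm and 2 events between the fractions of that knockout. Without the filter on low counts, 1 member gene was called in AGO2 knockout cytoplasm.

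Transcripts of near-equal length gave 1 and 2 member events in AGO2 and triple knockout nuclei, 3, 4 and 1 events between fractions in wild-type, AGO1 and AGO2 knockout cells, and 0 for the difference between fractions in the AGO2, double and triple knockouts; 47 of the 51 events could be fitted, without the 119-nt exon of CTNND1. CTNND1 turned to 4.2, 22.1 and 24.1 points for the 119-nt exon and 0.5, 8.8 and 5.9 points for the upstream start in those knockouts' nuclei, and between fractions the upstream start turned to -0.8 points in wild-type and -0.3 in AGO2 knockout cells. ENAH exon 11a turned to -5.0, -4.3, -1.5, -1.6 and -0.8 points between fractions in wild-type, AGO1, AGO2, double and triple knockout cells. Estimated reads in place of TPM gave 5.7 and 2.8 points for the CTNND1 upstream start in double and triple knockout nuclei, and protein-coding transcripts alone gave -0.5 points for v2 to v3 of CD44.

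With limma on log2(TPM + 1), 5 member genes were called in AGO1 knockout nuclei and 5 in AGO2 knockout cytoplasm, and ESRP1 in the AGO2 knockout passed the test at -0.49 in both fractions (adjusted p = 0.026 and 0.0287, limma). CD44 turned to -0.03 in AGO2 knockout nuclei, CTNND1 to -0.35, -0.19, -0.05 and -0.17 in nuclei of the 4 knockouts, and RBFOX2 in the AGO2 knockout to -0.21 and -0.14.

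Leaving out 1 library gave these ranges. Member events ran from 1 to 2 in AGO2 knockout nuclei (3 with all libraries; 1 without wild-type passage 28 or 29 or any AGO2 knockout passage), 7 to 9 in double knockout nuclei, 1 to 2 in AGO1 knockout cytoplasm (2 without wild-type passage 28), 5 to 8 in double knockout (5 without passage 9 or 10) and 3 to 4 in triple knockout cytoplasm. Other targets ran from 0 to 1 in AGO2 and 5 to 9 in double knockout nuclei, 0 to 2 in AGO2 (0 without wild-type passage 29 or any AGO2 knockout passage) and 2 to 5 in triple knockout cytoplasm (2 without any 1 of its passages). Member genes ran from 1 to 2 in cytoplasm of the AGO1 (1 without passage 6 or 7) and AGO2 knockouts. ESRP1 ran from -0.62 to -0.27 and -0.72 to -0.39 in the AGO1 knockout, where the call was also lost without passage 6, 7 or 8 in nuclei and 6 or 7 in cytoplasm, and from -0.26 to 0.09 and -0.40 to -0.06 in the AGO2, -2.43 to -1.95 and -2.84 to -2.39 in the double knockout, and -1.80 to -1.45 and -2.05 to -1.71 in the triple knockout. Events between fractions ran from 6 to 8, 6 to 8, 4 to 5, 3 to 5 and 3 to 4.

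Passage numbers are shared by the fractions of a genotype. Deviations of libraries with the same passage number correlated at -0.012 to 0.1, so little of the spread was shared. That cannot show whether such libraries came from the same culture. With a replicate block by genotype and passage, 7, 7, 4, 4 and 4 member events differed between fractions.

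The level of FGFR2 was low, and the part of depth in its shares was not tested. Shares rest on Salmon's split of reads between transcripts, which carries an error not in the files, and on annotated introns alone.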
